A study of Rattus norvegicus with 8 samples.

Results

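Receptor-mediated endocytosis in the kidney was described here through 10 genes of the megalin-cubilin route: Lrp2, Cubn, Amn, Dab2, Clcn5, Lrpap1, Ocrl, Fcgrt, Cltc and Snx3. The genes were chosen by their role, with Rab GTPases left out and with earlier results of these data known. Their probes were found by matching the RefSeq accession of each array probe to a member gene. Of the 10 genes, 9 had a matched probe, and 11 of the 30367 probes of the array belonged to them. No probe was matched to Lrpap1, the gene of the chaperone that keeps megalin from binding ligand during its synthesis, so it was not analysed here. After a filter on dim probes 8 of the 10 genes were tested, among 12411 genes in all. Ocrl did not pass that filter and is given by its values alone.

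Kidney RNA came from male rats given as 10 weeks old, at day 28. In the colistin group the rats had received 30 mg/kg colistin (n = 4), and in the saline group they had received saline (n = 4). The labels give no strain, dosing schedule or route, and they do not state in words that each sample is a separate animal. The p-values therefore reflect sample-to-sample spread only, which may in part be technical. Colistin is a polymyxin antibiotic whose dose is limited by injury to renal tubules.

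Megalin, the product of Lrp2, and cubilin, the product of Cubn, are large receptors on the apical membrane of proximal tubule cells that bind filtered albumin, vitamin carriers, hormones and drugs. Bound cargo enters through clathrin-coated pits, is released in acidified endosomes and goes on to lysosomes, while the receptors return to the surface. Polymyxins are among the compounds that this route takes up from the tubule lumen.

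The 250 bases before the start of transcription are shown for the 3 genes of the receptor complex (Lrp2, Cubn and Amn) and for Snx3, the one member whose transcript passed the test, so that the letters can be set beside the values. The sequences are RefSeq's, on build GRCr8, read 5′ to 3′ on the gene's strand, and capitals mark GC boxes (GGGCGG or its reverse complement CCGCCC). The windows are chr3:74754536-74754785 on the minus strand for Lrp2, chr17:81501695-81501944 on the minus strand for Cubn, chr6:136132317-136132566 on the plus strand for Amn and chr20:47574690-47574939 on the plus strand for Snx3.
Lrp2: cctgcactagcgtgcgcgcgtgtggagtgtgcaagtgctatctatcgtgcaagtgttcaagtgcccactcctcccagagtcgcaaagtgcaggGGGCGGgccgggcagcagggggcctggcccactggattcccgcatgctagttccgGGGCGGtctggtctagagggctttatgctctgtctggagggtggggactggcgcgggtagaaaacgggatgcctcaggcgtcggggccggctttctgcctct
Cubn: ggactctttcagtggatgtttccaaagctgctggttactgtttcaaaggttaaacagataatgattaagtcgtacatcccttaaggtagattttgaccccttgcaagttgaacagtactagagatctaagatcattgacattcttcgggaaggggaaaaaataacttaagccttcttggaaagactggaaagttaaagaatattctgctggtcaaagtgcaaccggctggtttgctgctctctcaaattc
Amn: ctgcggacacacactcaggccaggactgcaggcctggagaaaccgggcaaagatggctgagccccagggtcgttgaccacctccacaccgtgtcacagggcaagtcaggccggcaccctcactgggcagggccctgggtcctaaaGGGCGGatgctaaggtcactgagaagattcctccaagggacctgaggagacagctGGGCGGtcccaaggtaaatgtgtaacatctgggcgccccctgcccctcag
Snx3: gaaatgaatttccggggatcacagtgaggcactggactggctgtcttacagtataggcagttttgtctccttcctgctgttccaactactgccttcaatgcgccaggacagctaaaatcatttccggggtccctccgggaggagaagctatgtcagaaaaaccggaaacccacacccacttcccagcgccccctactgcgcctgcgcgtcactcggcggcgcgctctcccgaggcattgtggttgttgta
The windows of Lrp2 and Amn held 2 GC boxes each, and those of Cubn and Snx3 held none. A GC box was present in 30.5% of the 33469 promoter windows of the same length. The other motifs were searched on both strands, and none of them was found in the 4 windows: the TATA box (TATAAA, in 12.9% of all windows), the CCAAT box (CCAAT, in 34.0%), the E-box (CACGTG, in 5.59%) and a half-site of HNF1 (GTTAAT, in 6.45%). No searched motif overlapped another in these 4 windows. The share of G and C was 64.4% for Lrp2, 62.8% for Amn, 56.0% for Snx3 and 40.0% for Cubn, against a median of 51.2% over all windows. These are descriptions of the letters alone.

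Transcript levels were read from 1-colour arrays, 1 sample per array, as the processed intensity of each spot (background-subtracted signal, in linear units). The colistin arrays were brighter: the 75th percentile of processed signal was 271 to 317 on colistin arrays and 156 to 197 on saline arrays, a difference of 0.78 on the log2 scale. Between 79.1% and 83.9% of spots were well above background on colistin arrays, and between 69.3% and 75.8% on saline arrays. Fold changes were therefore computed after each array was divided by its own 75th percentile, and the unscaled values are given beside them. The markers of proximal tubule fixed for this work were all measured, and 17 of 17 were tested. Of these 2 fell and 0 rose, where 2.00% of all genes tested passed. In 9 of the 17 the groups did not overlap, all of them lower, where 18.6% of all genes had no overlap and 11.7% were lower with no overlap. Their median log2 fold change was -0.91, and the difference between groups in their median was -0.01 without scaling. The sum of their scaled signals was 354 to 651 on colistin arrays and 940 to 1314 on saline arrays, and each marker was well above background on some array. Markers of other cell types were lower on the same scale, with median log2 fold changes of -3.33 for intercalated cells, -2.85 for endothelium, -2.58 for the thick ascending limb, -2.11 for distal convoluted tubule and principal cells, -1.48 for macrophages, -1.42 for podocytes and -1.13 for smooth muscle and fibroblasts. In kidney tissue, fewer proximal tubule cells and less RNA per cell cannot be told apart, and the same holds for the other cell types.

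Across the route, Snx3 fell after colistin and no other member passed the test. That is 1 of 8 tested members, where 2.00% of all genes tested passed and 0.540% passed as lower (limma with Benjamini-Hochberg adjustment over all genes, adjusted p under 0.05). At an unadjusted p under 0.05, Snx3 and Fcgrt were the members that passed, where 22.7% of all genes did. The 8 members had a median log2 fold change of 0.11, and the 12411 genes tested had one of -0.14. The members ran from -1.93 for Snx3 to 1.61 for Clcn5, with 4 above 0 and 4 below. In 3 of 8 members the 4 colistin values lay outside the range of the 4 saline values (Lrp2 and Snx3 lower, Fcgrt higher), where 18.6% of all genes tested had no overlap, 6.89% as higher and 11.7% as lower. The plot of scaled values by array shows these 3 separations and the saline arrays on which Cubn and Clcn5 were low.

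**Figure D1:**
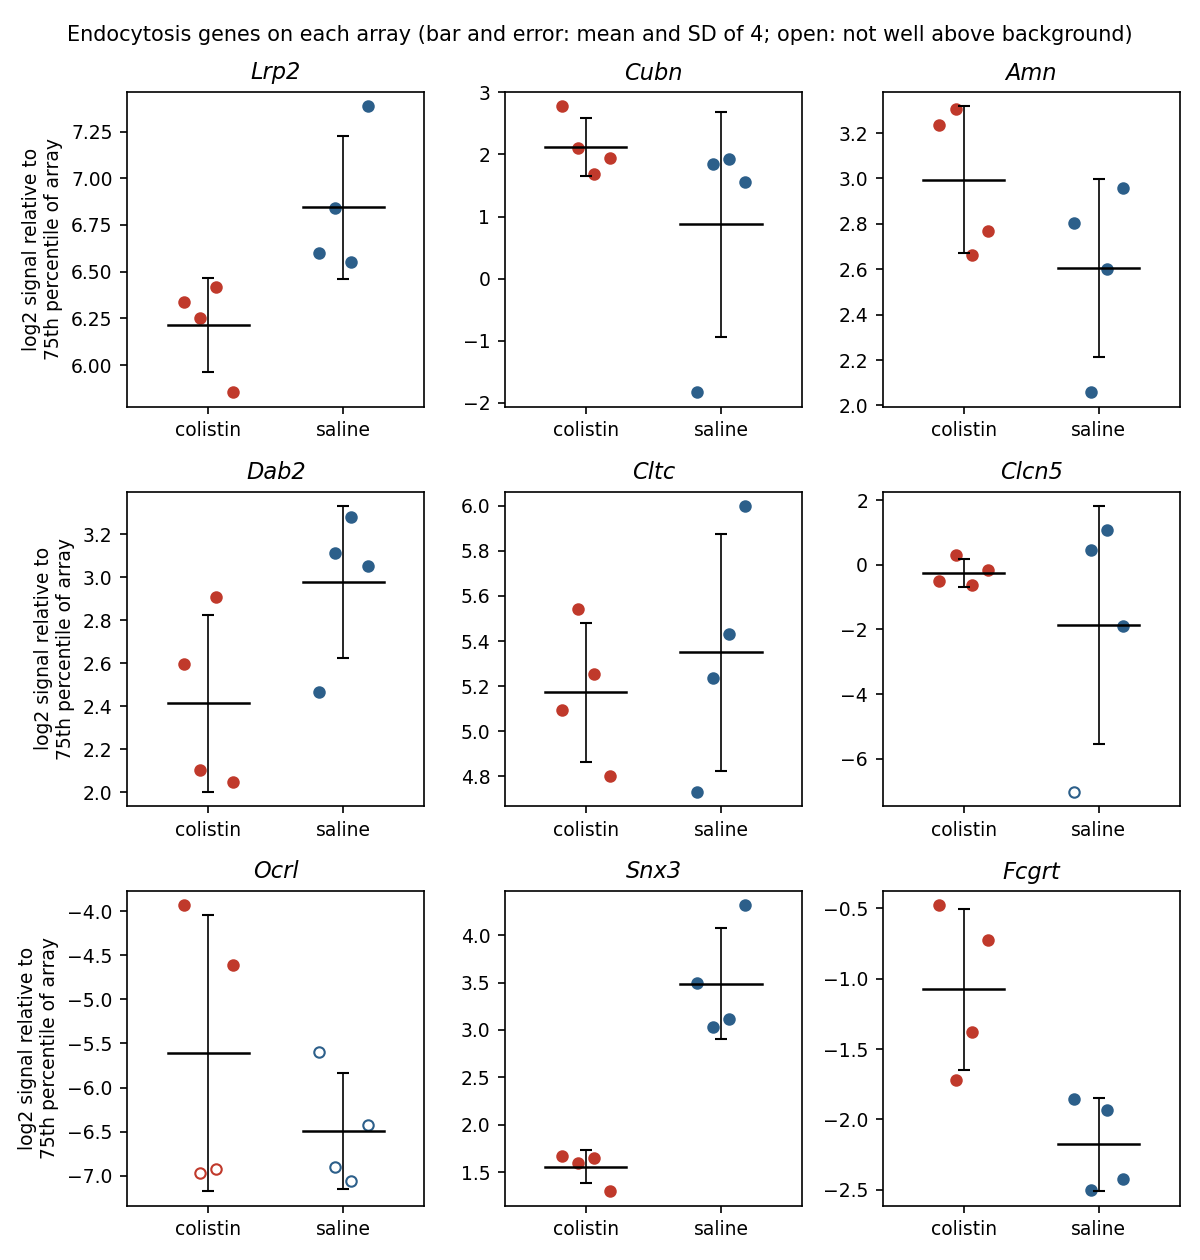
Scaled signal of each member on each array, as log2 of the processed signal relative to the array's 75th percentile, with colistin arrays in red and saline arrays in blue, replicates 1 to 4 from left to right. Black lines and bars give the mean and SD of 4 arrays, and open circles mark arrays where the probe was not well above background. Snx3 lies at 1.30 to 1.67 on colistin arrays and at 3.04 to 4.32 on saline arrays.

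Lrp2 encodes megalin, and 2 probes measured it. On the probe used for the gene, the processed signal was 24663, 23353, 23141 and 18345 on colistin arrays 1 to 4, against 15161, 21945, 18442 and 26123 on saline arrays 1 to 4. These unscaled values overlapped, with a colistin over saline ratio of 1.11. After scaling, Lrp2 averaged 6.21 ± 0.25 on colistin arrays and 6.84 ± 0.38 on saline arrays (log2, SD, n = 4 each), and every colistin array was below every saline array. The log2 fold change of -0.63 ± 0.31 (SE) had a 95% interval of -1.35 to 0.09 and did not pass (adjusted p = 0.265, limma). Relative to the median of all genes the difference was -0.49, and -0.12 with normexp background correction. Within slides 1, 2 and 3 the scaled log2 fold change was -0.74, -0.42 and -0.46, with the sign fixed in advance by the lack of overlap. Slide 1 held 1 colistin and 2 saline arrays, slide 2 held 1 and 1, and slide 3 held 2 and 1.

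The other Lrp2 probe read 13765, 14973, 11008 and 7614 on colistin arrays 1 to 4, against 4017, 7414, 8436 and 8151 on saline arrays 1 to 4. Its unscaled ratio was 1.70, and its scaled means were 5.26 ± 0.46 on colistin arrays and 5.27 ± 0.43 on saline arrays. The log2 fold change of this probe was -0.01 ± 0.34 (95% interval -0.80 to 0.78, adjusted p = 0.985 over all kept probes, limma). The probes of Lrp2 thus gave fold changes of -0.63 and -0.01, and the separation of the groups seen on the first probe was not seen on this one. With the mean of both probes the log2 fold change was -0.32 (adjusted p = 0.573).

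Cubn encodes cubilin, the membrane-bound receptor for albumin and for the complex of intrinsic factor with vitamin B12 that has no membrane-spanning part of its own. Its processed signal was 2091, 1315, 867 and 1222 on colistin arrays 1 to 4, against 43.9, 693, 744 and 462 on saline arrays 1 to 4. Unscaled, every colistin value was above every saline value. On that scale the colistin arrays were brighter and all genes tested had a median log2 fold change of 0.64. The share of all genes with no overlap was not computed there. Scaled, Cubn averaged 2.13 ± 0.47 on colistin arrays and 0.88 ± 1.81 on saline arrays (log2, SD, n = 4 each), and the groups overlapped. Saline array 1 was far below the other 3 saline arrays, at -1.83 against 1.56 to 1.92. The log2 fold change was 1.25 ± 0.84 (95% interval -0.68 to 3.17, adjusted p = 0.388, limma), and without saline array 1 it was 0.35 (adjusted p = 0.602). Within slides 1, 2 and 3 it was 2.23, -0.17 and 0.44, so the direction did not hold on every slide. The value of slide 2 rests on 1 array of each group, and slide 1 held saline array 1.

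Amn encodes amnionless, the membrane-spanning partner that carries cubilin to the apical surface. The signal of Amn was 2872, 3040, 1716 and 2161 on colistin arrays 1 to 4, against 1089, 798, 1195 and 1216 on saline arrays 1 to 4. Unscaled, all colistin values were above all saline values, with a ratio of 2.25. As for Cubn, the share of all genes separated in this way was not computed without scaling, where the median gene was at 0.64. After scaling, the groups overlapped, at 2.99 ± 0.32 on colistin arrays and 2.61 ± 0.39 on saline arrays. The log2 fold change was 0.39 ± 0.33 (95% interval -0.36 to 1.14, adjusted p = 0.489, limma). The probe of Amn was spotted in 10 copies per array, and the copies varied by 1.63% to 4.91% (coefficient of variation within an array), far less than the arrays of a group.

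Dab2 encodes the adaptor that links the cytoplasmic tail of megalin to clathrin, and it was also measured by 2 probes. On the probe used for the gene, the processed signal was 1844, 1319, 2032 and 1312 on colistin arrays 1 to 4, against 862, 1658, 1908 and 1298 on saline arrays 1 to 4. Scaled, Dab2 averaged 2.41 ± 0.41 on colistin arrays and 2.98 ± 0.35 on saline arrays, and the ranges overlapped through saline array 1, at 2.47. The log2 fold change was -0.56 ± 0.34 (95% interval -1.34 to 0.21, adjusted p = 0.337, limma). The other probe gave -0.17 ± 0.36 (adjusted p = 0.794 over all kept probes, limma). Macrophages also express Dab2, and of the macrophage markers 8 of 10 were tested and 1 fell, where 0.540% of all genes tested passed as lower. The sum of the macrophage markers' scaled signals was 12.7 to 28.6 on colistin arrays and 51.1 to 73.3 on saline arrays, and their part in the Dab2 values was not tested.

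Cltc encodes the clathrin heavy chain, the main building block of the coat. Processed signals of Cltc were 10411, 14288, 10318 and 8856 on colistin arrays 1 to 4, against 4144, 7229, 8474 and 10002 on saline arrays 1 to 4. The unscaled ranges overlapped through saline array 4. The scaled means were 5.17 ± 0.31 on colistin arrays and 5.35 ± 0.52 on saline arrays, with a log2 fold change of -0.18 ± 0.36 (95% interval -0.997 to 0.643, adjusted p = 0.785, limma). Of the tested members Cltc had the fold change closest to 0 on this scale, and its sign changed with the scaling.

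**Figure D2:**
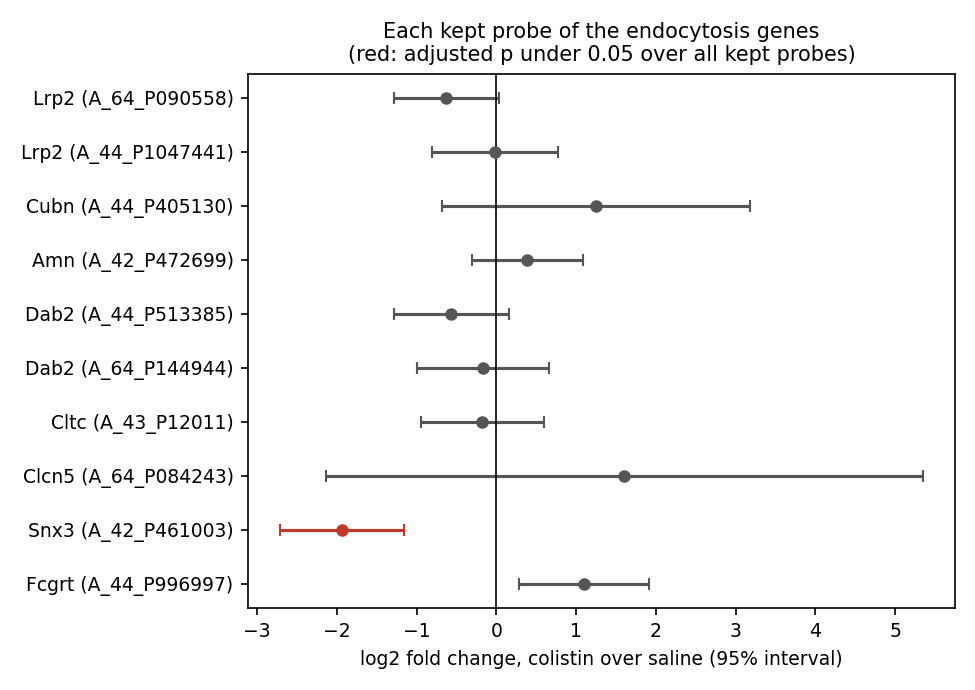
Log2 fold change, colistin over saline, of the 10 member probes that passed the filter on dim probes, with 95% intervals from the limma fit over all kept probes. The interval of Snx3 lies wholly below 0 and that of Fcgrt wholly above 0, and Snx3 alone had an adjusted p under 0.05 (red). The intervals of Cubn and Clcn5 are the widest.

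Clcn5 encodes a chloride-proton exchanger of endosomes that supports their acidification, and its loss in humans causes Dent disease, with protein loss in urine. Processed signals of Clcn5 were 214, 382, 174 and 286 on colistin arrays 1 to 4, against 1.2, 262, 413 and 41.8 on saline arrays 1 to 4. The colistin values were close together, while the saline values held both the highest and the lowest of the 8. On saline array 1 the probe was not well above background. The scaled means were -0.25 ± 0.43 on colistin arrays and -1.85 ± 3.68 on saline arrays, and the log2 fold change of 1.61 ± 1.61 had a 95% interval of -2.08 to 5.30 (adjusted p = 0.564, limma). Without saline array 1 it was -0.12 (adjusted p = 0.937), so the sign rested on that array. With normexp it was 0.26 (adjusted p = 0.769). Within slides 1, 2 and 3 the scaled difference was 4.78, -1.09 and -1.40.

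Ocrl encodes a phosphoinositide phosphatase of clathrin-coated pits and early endosomes, whose loss in humans causes Lowe syndrome. Ocrl gave a processed signal of 19.96, 2.4, 2.2 and 12.9 on colistin arrays 1 to 4, against 3.2, 1.6, 1.5 and 1.8 on saline arrays 1 to 4. The probe was well above background on colistin arrays 1 and 4 and on none of the 4 saline arrays. With this few measured arrays no fold is given. In the fit with no filter on dim probes the adjusted p of Ocrl was 0.484 (limma).

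Snx3 encodes a sorting nexin that binds a phosphoinositide of early endosomes and works with the retromer coat to return cargo such as the transferrin receptor and Wntless from endosomes. Its processed signal was 969, 931, 851 and 779 on colistin arrays 1 to 4, against 1755, 1573, 1700 and 3112 on saline arrays 1 to 4. All colistin values were below all saline values both before and after scaling, and the 4 colistin arrays differed little among themselves. The scaled means were 1.55 ± 0.17 on colistin arrays and 3.49 ± 0.59 on saline arrays (log2, SD, n = 4 each). Snx3 fell by 1.93 ± 0.36 on the log2 scale (95% interval -2.76 to -1.11, adjusted p = 0.0384, limma), a level 3.82-fold lower in colistin kidneys.

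The 10 copies of the Snx3 probe on each array varied by 3.38% to 6.19%. As the groups of Snx3 did not overlap, its sign within each slide was fixed in advance. Within slides 1, 2 and 3, each of which held arrays of both groups, the log2 fold change was -2.30, -1.38 and -1.63. Without scaling it was -1.15 (adjusted p = 0.0595), and relative to the median of all genes it was -1.79, and -1.37 with normexp. The call of Snx3 was lost in 7 of 8 fits that left out 1 array, where the adjusted p ran from 0.0400 to 0.113 and the fold change from -2.09 to -1.66. It passed without saline array 4, the array on which Snx3 was highest.

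Fcgrt encodes the neonatal Fc receptor, which binds albumin and immunoglobulin G in acidic endosomes and returns them to the cell surface. Its processed signal was 219, 93.1, 104 and 191 on colistin arrays 1 to 4, against 43.2, 33.8, 51.6 and 29.2 on saline arrays 1 to 4. All colistin values were above all saline values before and after scaling, and the probe was well above background on all 8 arrays. The scaled means were -1.08 ± 0.57 on colistin arrays and -2.18 ± 0.33 on saline arrays. The log2 fold change was 1.10 ± 0.37 (95% interval 0.24 to 1.96) and did not pass over all genes (adjusted p = 0.156, limma). With normexp background correction it was 0.52 (adjusted p = 0.129). Without scaling it was 1.88 (adjusted p = 0.0301), and with arrays centred on the proximal tubule markers it was 1.89 (adjusted p = 0.0408). The median of all genes was 0.64 and 0.65 in these fits, and 8.38% and 6.86% of all genes passed. Within slides 1, 2 and 3 the scaled difference was 0.42, 1.13 and 1.33, with the sign fixed in advance by the lack of overlap.

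Endothelium and macrophages also express Fcgrt, and markers of both were lower on colistin arrays. Of the endothelial markers 7 of 9 were tested and 4 fell, where 0.540% of all genes tested passed as lower. Their summed scaled signals were 4.81 to 7.69 on colistin arrays and 33.4 to 53.1 on saline arrays. The part of these cell types in the Fcgrt values was not tested. B2m, which encodes the light chain that pairs with the neonatal Fc receptor, gave a log2 fold change of 0.09 ± 0.34 (adjusted p = 0.888), at 5.29 ± 0.22 on colistin arrays and 5.19 ± 0.49 on saline arrays.

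The choice of scale set the sign for some members. With no scaling between arrays all genes together had a median of 0.64, where it was -0.14 with the 75th percentile. Lrp2, Dab2 and Cltc, at -0.63, -0.56 and -0.18 with the 75th percentile, gave 0.15, 0.22 and 0.61 with no scaling. Cubn, Amn, Clcn5 and Fcgrt were above 0 and Snx3 below 0 under each of the 6 ways shown in the plot of scalings. Relative to the median of all genes, which a constant per array does not move, Dab2 was at -0.42, Cltc at -0.03 and Amn at 0.53, and with normexp they were at -0.10, 0.37 and 0.85.

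**Figure D3:**
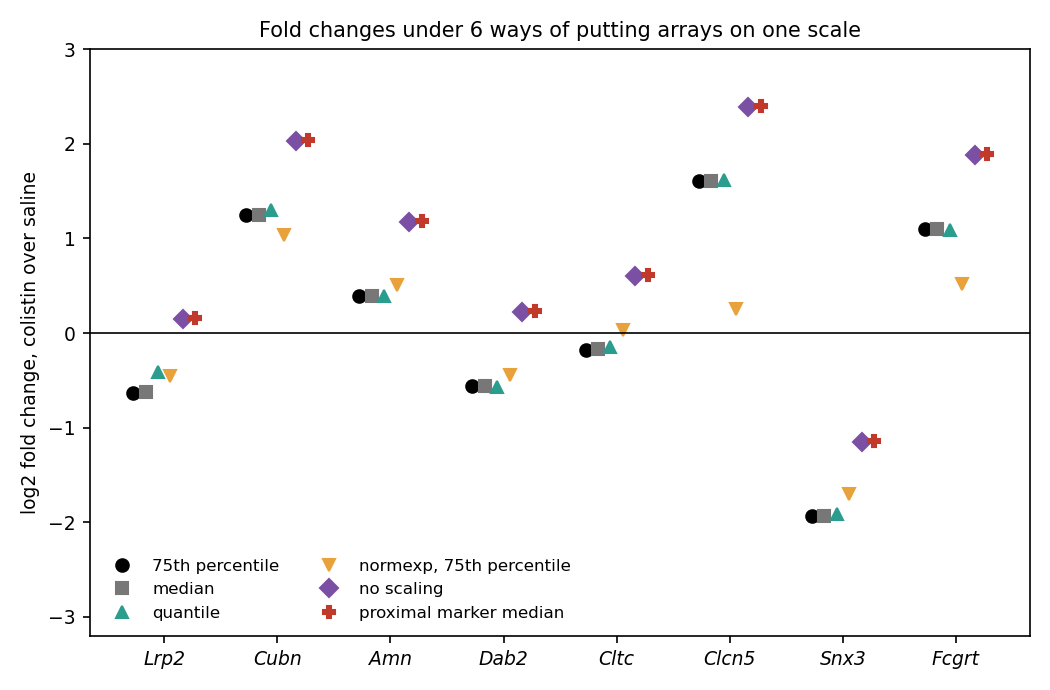
Log2 fold change of each tested member, colistin over saline, with arrays scaled on the 75th percentile, the median or by quantiles, with normexp background correction, with no scaling, and with each array centred on the median of 17 proximal tubule markers. Snx3 is below 0 in all 6, and Lrp2 and Dab2 change sign between the first 4 and the last 2.

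Because most of these genes are active in the proximal tubule, each member was also set against the median of the 17 proximal tubule markers on the same array. That median was 4.39 ± 0.34 on colistin arrays and 5.18 ± 0.23 on saline arrays in scaled log2 units, a difference of -0.79, and -0.01 before scaling. Relative to it, Lrp2 was at 1.82 ± 0.24 on colistin arrays and 1.66 ± 0.47 on saline arrays, and the groups overlapped. Amn was at -1.40 ± 0.20 on colistin arrays and -2.58 ± 0.38 on saline arrays, with no overlap. Cubn was at -2.27 ± 0.32 on colistin arrays and -4.31 ± 1.73 on saline arrays, again with no overlap, with the lowest saline value at -6.88. Fcgrt was higher and Snx3 lower relative to the markers on every colistin array than on any saline array, with differences of 1.89 and -1.14, and Dab2, Clcn5 and Cltc overlapped. In the fit with arrays centred on the markers, which tests these differences, Fcgrt passed (adjusted p = 0.0408), and Amn (adjusted p = 0.0866), Cubn (adjusted p = 0.147) and Snx3 (adjusted p = 0.134) did not (limma). On that scale all genes tested had a median of 0.65, and 6.86% of them passed, 97.2% of those higher. Relative to that median Amn was at 0.53, Cubn at 1.39, Fcgrt at 1.24 and Snx3 at -1.79. The share of all genes with no overlap was not computed on that scale.

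**Figure D4:**
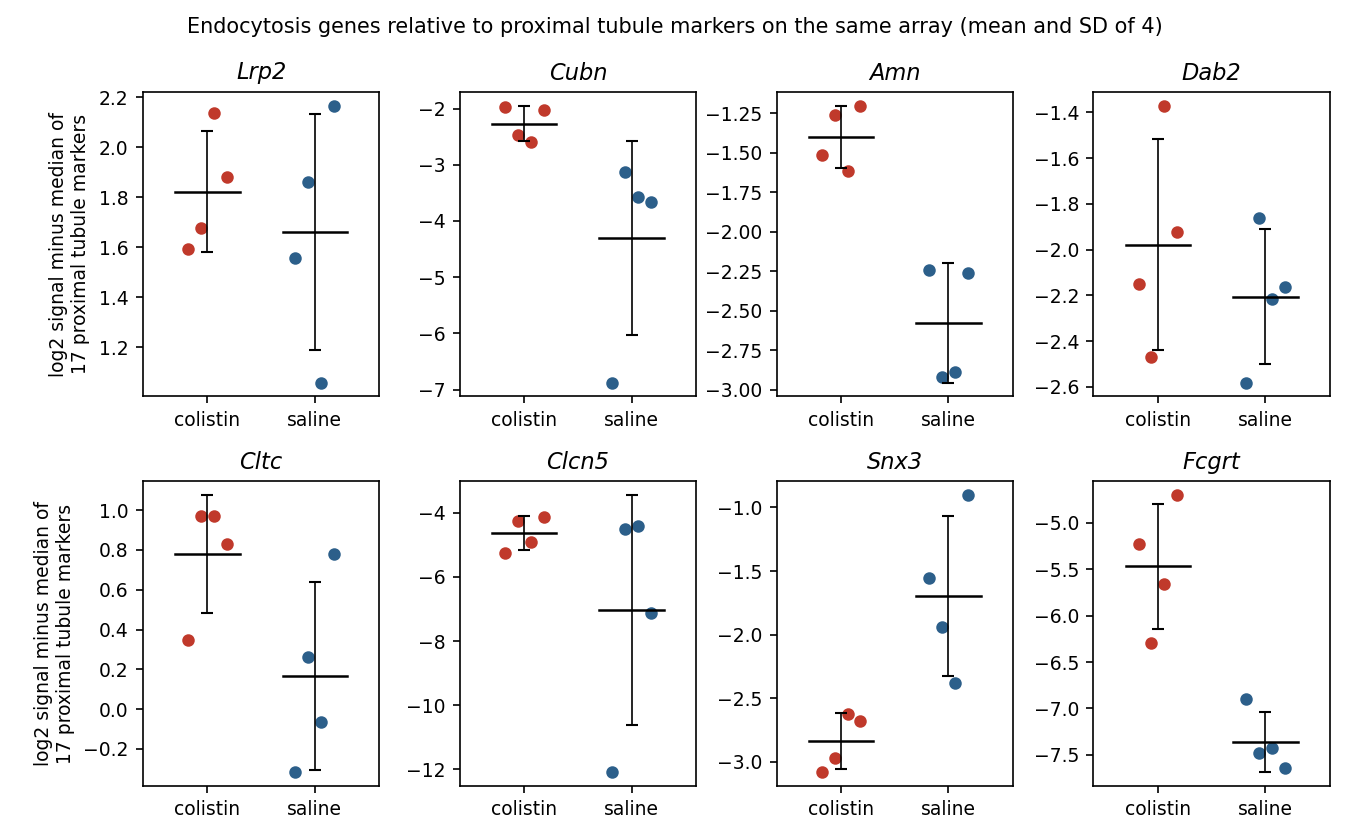
Log2 signal of each tested member minus the median of 17 proximal tubule markers on the same array, colistin in red and saline in blue, with the mean and SD of 4 arrays. Cubn, Amn and Fcgrt lie higher on all 4 colistin arrays than on any saline array and Snx3 lies lower, while Lrp2, Dab2, Cltc and Clcn5 overlap. All genes tested had a median log2 fold change of 0.65 on this scale, and their share with no overlap was not computed. The lowest saline value of Clcn5 comes from a probe that was not well above background there.

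Members differed in how they varied over the 8 arrays. The nearest member to Lrp2 was Dab2, with a root mean square difference of 0.33 between their mean-centred log2 values over 8 arrays, and the nearest to Cltc was Lrp2, also at 0.33. Over all genes tested, the genes nearest to Lrp2 by this measure were Idh2, which encodes a mitochondrial isocitrate dehydrogenase, at 0.10, Pgc at 0.12 and Aldoart2 at 0.12, where the median gene was at 0.94. The genes nearest to Cubn were Nprl2 at 0.31, Kmt5b at 0.36 and Fdx2 at 0.39, where the median gene was at 1.62. Cubn and Clcn5, both low on saline array 1, were 1.30 apart. These are the closest of 12411 genes on 8 arrays.

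The other genes of the route were described by 7 lists, and 2 of their 127 tested genes passed, both of them higher. That is 1.57%, where 2.00% of all genes tested passed and 1.46% passed as higher, a share near the background. The list medians moved with the scale, from between -0.76 and 0.36 with the 75th percentile to between 0.02 and 1.14 with no scaling. Of genes of the clathrin coat and vesicle formation, 23 of 28 were tested, and none rose or fell over all genes (median 0.12). In 3 of the 23, or 13.0%, the groups did not overlap, against 18.6% of all genes. The clathrin light chain genes Clta and Cltb gave -0.02 ± 0.44 and 0.48 ± 0.82. Ap2s1, the small subunit of the AP-2 adaptor, gave -0.86 ± 0.28 (adjusted p = 0.1497) with no overlap between groups, at 7.52 ± 0.14 on colistin arrays and 8.38 ± 0.30 on saline arrays. Hip1r, which links clathrin coats to actin, gave 1.85 ± 0.47 (adjusted p = 0.0935), also with no overlap, at 2.63 ± 0.52 on colistin arrays and 0.78 ± 0.79 on saline arrays. Adaptors and tail partners of megalin had a median of -0.01 over 10 genes, with none passing.

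Genes of endosomal acidification had a median of -0.15 over 19 genes, and none passed. The groups did not overlap in 1 of the 19, or 5.26%. Clcn3 and Clcn4, the closest relatives of Clcn5, gave 0.07 ± 0.41 and -0.09 ± 0.80. Slc9a3, the apical sodium-proton exchanger, gave -1.30 ± 0.50 (adjusted p = 0.186), with all colistin values below all saline values. Sorting nexins, retromer and recycling genes, the list closest to Snx3, had a median of 0.06 over 33 genes, and none passed. In 4 of them, or 12.1%, the groups did not overlap, against 18.6% of all genes. The retromer genes Vps26a, Vps29 and Vps35 gave 0.66 ± 0.86, 0.01 ± 0.41 and -0.88 ± 0.78, and the Snx3 cargo gene Wls gave 0.15 ± 0.40. The low-density lipoprotein receptor family had a median of -0.76 over 12 genes, with 9 below 0 and none passing. Over all genes tested, 6815 of 12411 were below 0. In 1 of the 12, or 8.33%, the groups did not overlap, against 18.6% of all genes. The family median was 0.02 with no scaling and -0.23 without saline arrays 1 and 4, so its size and sign were not stable.

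Phosphoinositide enzymes of endosomes had a median of 0.36 over 14 genes, and 1 rose. The median was -0.21 with normexp, -0.20 without saline array 1, -0.05 without colistin array 1 and 0.06 with slide as a fixed block, so its sign was not stable. That gene was Pip5k1a, which makes the phosphoinositide that recruits clathrin adaptors. Its processed signal was 1069, 234, 723 and 267 on colistin arrays 1 to 4, against 34.5, 12.3, 21.9 and 5.97 on saline arrays 1 to 4. All colistin values were above all saline values, and the log2 fold change was 4.15 ± 0.71 (adjusted p = 0.0297, limma). Saline signal cleared the background on 3 of 4 arrays, which leaves the size uncertain, and with normexp the fold change was 2.14. Inpp5b, the closest relative of Ocrl, gave 2.59 ± 0.56 with no overlap and did not pass (adjusted p = 0.0626), at 1.26 ± 0.86 on colistin arrays and -1.33 ± 0.79 on saline arrays. The groups did not overlap in 3 of the 14 genes, or 21.4%, against 18.6% of all genes.

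Ligands and partner receptors had a median of -0.02 over 16 genes, and 1 rose. Ambp, which encodes the precursor of alpha-1-microglobulin, a small filtered protein taken up by megalin, had a processed signal of 171, 2182, 448 and 185 on colistin arrays 1 to 4, against 13.1, 18.2, 6.54 and 3.42 on saline arrays 1 to 4. Its log2 fold change was 4.84 ± 0.89 (adjusted p = 0.0383, limma), and with normexp it was 2.26. Saline signal of Ambp cleared the background on 2 of 4 arrays, which leaves the size uncertain. The filter on dim probes thus admitted Ambp only through the colistin group, where it was high. Apoe, which encodes a lipoprotein ligand of megalin, gave 2.13 ± 0.60 with no overlap (adjusted p = 0.113). The groups did not overlap in 3 of the 16 genes, or 18.75%, against 18.6% of all genes. The call of Pip5k1a was lost in 7 of 8 fits that left out 1 array and that of Ambp in 8 of 8, with an adjusted p of up to 0.0827 and 0.0994. Both calls were also lost with slide as a fixed block (adjusted p = 0.131 for Pip5k1a and 0.0783 for Ambp) and with the replicate block (0.0656 and 0.0830), and that of Ambp with slide as a random block (0.0506). Neither gene was tested over probes above background on all 8 arrays, where no gene of their lists passed. The genes of the lists named without a call were chosen after the values had been seen, and they include genes picked out with no overlap between groups.

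**Figure D5:**
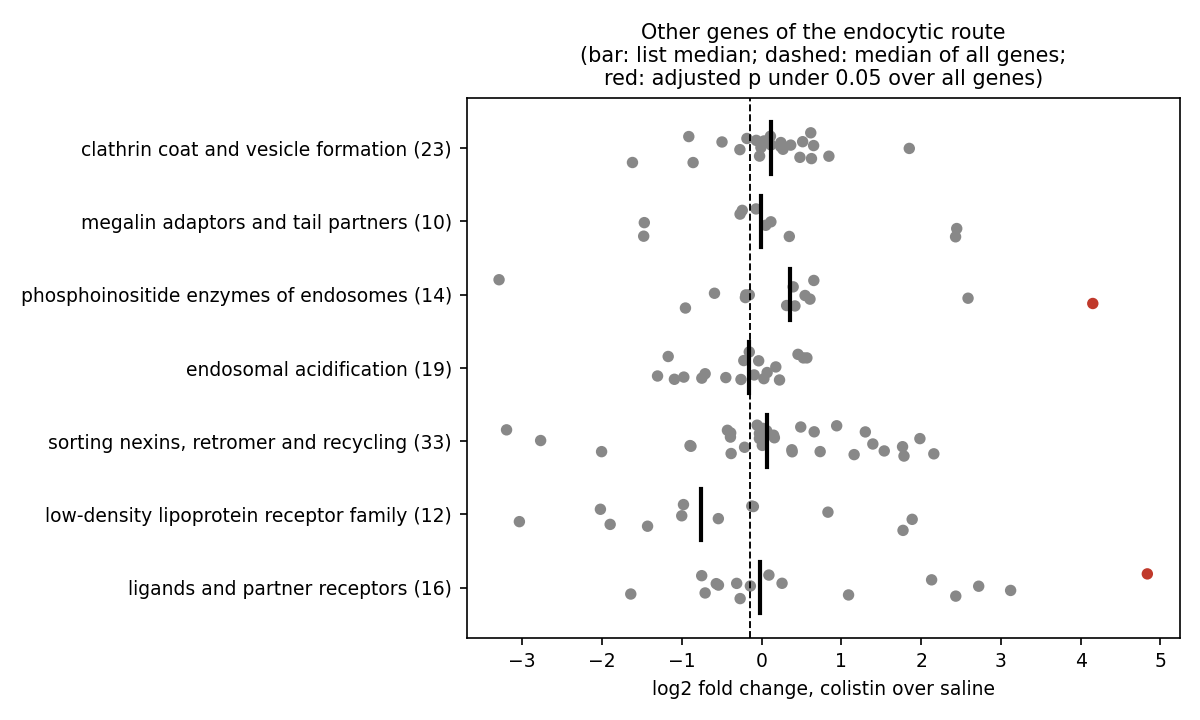
Log2 fold change, colistin over saline, of each tested gene in 7 lists of the endocytic route, with the number of genes in brackets, the list median as a bar and the median of all genes tested (-0.14) as a dashed line. The 2 genes with an adjusted p under 0.05 over all genes (red) are Pip5k1a and Ambp, and the other genes lie on both sides of the dashed line in every list.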

How the data were processed

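The authors deposited 1 table of spot intensity values per array, which the submitters' processing notes credit to Agilent Feature Extraction 10.5, background-subtracted and spatially detrended within each array and not scaled between arrays (per the file headers). The deposited series table held log2 values whose scale no label states. Its differences between arrays correlated with those of the scanner values at 0.99986 or above across probes, each probe was centred on its median, and its direction is that of the scanner values. Its column medians were -0.113, -0.230, -0.0893 and -0.0327 for colistin arrays 1 to 4 and 0.233, 0.0232, 0.0865 and 0.196 for saline arrays 1 to 4. It served as an alternative, though not an independent one. Fitted with no further scaling, it gave Lrp2 a log2 fold change of -0.6295, where the main fit gave -0.6299. The labelled material was amplified SPIA cDNA (per the labels' protocols).

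Spots flagged as outliers were dropped (257 to 461 per array), no spot was saturated, and copies were averaged. Values were processed signals divided by the 75th percentile of their array, then put on the log2 scale. A probe was kept (23710 with no missing value) if 3 or more of the 4 arrays in one group read it well above background. A gene was its kept probe of highest mean, named through RefSeq accessions on GRCr8 (18643 of 30367 probes). Groups were compared with limma 3.58.1 (R 4.3.3), in a two-sided test, Benjamini-Hochberg adjusted over every gene tested at 0.05, and the fit was checked on simulated data. The number of arrays limits the precision. The planned normexp correction on mean signals used median signals instead, with an offset of 50. The members and lists were chosen with earlier results of these data known. Named genes were all members, up to 2 passing genes per list and direction, and the 3 genes nearest to Lrp2 and to Cubn. Genes of the lists named without a call fall outside this rule, and were chosen after their values were seen.

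Arrays lay on 3 slides (per the file headers), and each slide held both groups. Alternatives were other background corrections, scalings, filters and probe rules, slide or replicate number as a block, and arrays left out. One, no scaling between arrays, was added after seeing the data.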

Additional observations from a re-analysis of the deposited data

Results flagged for a closer look

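Cubn on saline array 1 stood apart from the other saline arrays. Its scaled log2 value was -1.83, and its gap to the nearest of the other 3 was 0.905 of the range of the group, above Dixon's 95% critical value for 4 samples. It was 1 of 16 groups of 4 values examined for the 8 tested members, and chance flags about 1 in 20 groups. On the same array Clcn5 was not well above background.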

How the results depend on the processing

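The call of Snx3 was the one member result that rested on a threshold. Its sign was negative in all alternatives. Because the groups did not overlap, the sign within slides and with arrays left out could not have differed. In limma the call was lost with median scaling (-1.93, adjusted p = 0.0794), arrays centred on the proximal markers (-1.14, adjusted p = 0.134) and no scaling (-1.15, adjusted p = 0.0595). It was also lost with slide as a fixed block (-1.81, adjusted p = 0.133), the replicate block (-1.93, adjusted p = 0.156) and without saline arrays 1 and 4 (-1.52, adjusted p = 0.0843). With 1 array left out the fold change of Snx3 ran from -2.09 to -1.66. Snx3 kept the call with slide as a random block (adjusted p = 0.0424). In those 6 settings 0 of 8 members passed, except that Fcgrt passed with no scaling (1.88) and with proximal centring (1.89). Within slide 1 Fcgrt was at 0.42. Signs turned for Lrp2 (0.16 with proximal centring, 0.15 with no scaling), Dab2 (0.23 and 0.22), Cltc (0.614 and 0.605, and 0.0344 with normexp) and Clcn5 (-1.01 without saline arrays 1 and 4). With 1 array left out Clcn5 ran from -0.12 to 2.58 and Cltc from -0.38 to 0.0398. None of these 4 passed in any setting, and the cause was not tested.

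Over all genes 248 changed, 73.0% of them higher. The count was 3390 with normexp (20.2% higher), 851 with proximal centring (97.2% higher), 1040 with no scaling (96.3% higher), 203 over probes above background on all 8 arrays (59.6% higher), 40 with slide as a fixed block (87.5% higher), 204 with slide as a random block (76.0% higher), 5 with the replicate block and 143 without saline arrays 1 and 4. With 1 array left out it ran from 78 to 255, and the count of members passing was 0 or 1. Deviations of same-numbered arrays from their group means correlated at -0.02 to 0.01 over genes. No pairing by number was seen, though values near 0 cannot settle whether the samples were paired.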
